A study of Mus musculus with 2 samples.

Results

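The genes described here are 33 genes of the cornified envelope and the skin barrier, out of 32285 gene rows in the count matrix. They were taken as a list of named rows, with no threshold on a measured value, and all 33 had a row. They cover 10 envelope precursors and late proteins, 2 crosslinking enzymes, 6 barrier lipid genes, 4 proteases with 1 protease inhibitor, 3 genes of the desmosome and corneodesmosome, 3 secreted peptides of stratified epithelium, 3 calcium or metal binding proteins, and the transcription factor Grhl3. The series asks how loss of neutrophils changes the transcriptome of mouse skin. Skin of C57BL/6 mice aged 8 weeks was dissociated with Liberase and a DNase, and single cells were captured for droplet RNA sequencing. One group of mice was the control and the other had received the anti-Ly6G antibody 1A8, which depletes neutrophils, on 2 consecutive days without any other challenge. The labels give neither the number nor the sex of the mice, nor what the controls received. Cells of both groups carried hashtag antibodies and were pooled into 1 RNA library, and the matrix holds no hashtag rows and no condition in its barcode names. Control and depleted skin were therefore not compared, and every value below describes cells of both groups together.

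The epidermis renews itself from a basal layer, marked by keratins 5 and 14, whose daughters move up, switch to keratins 1 and 10, and finally flatten into dead corneocytes. In the uppermost living layer, the granular layer, proteins such as involucrin, loricrin and the small proline-rich proteins are crosslinked by transglutaminases under the cell membrane into the cornified envelope. Lamellar bodies export ceramides and lipid-processing enzymes that seal the spaces between corneocytes, and kallikreins later cut the corneodesmosomes so that corneocytes can be shed.

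The library held 8367 barcodes with 83725065 UMIs (unique molecular identifiers, each counted as 1 RNA molecule), a median of 9426 UMIs per barcode and a range of 500 to 58199. After filters on genes, mitochondrial UMIs and doublets, 7822 cells in 30 clusters were analysed, and clusters were formed without the 33 genes. Clusters were named from marker lists and are called basal-like (616 cells in 3 clusters), suprabasal-like (408 cells in 1 cluster) and hair follicle-like (271 cells in 2 clusters), 1295 keratinocytes in all. Their median depths were 10912, 12081 and 6523 UMIs per cell. Keratins, which the naming used, differed between them: Krt10 was at 7320 CPM (UMIs of the gene per 1000000 UMIs of the class) in suprabasal-like cells and at 138 CPM in basal-like cells, and Krt14 was at 959 and 7369 CPM. With 1 library there are no replicates, so no test was made. Intervals in brackets are exact 95% intervals that cover counting error only, and they do not cover differences between cells or animals. A UMI count is not scaled by transcript length, so levels are compared between cells for 1 gene, not between genes.

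Krtdap, Mt4, Elovl4, Cyp4f39, Klk5, Spink5 and Sbsn were each above 40-fold higher in suprabasal-like than in basal-like cells, and Dsc1 had 54 UMIs against 0. Without the cell with the most UMIs of the gene, Spink5 was at 36.6-fold and Sbsn at 36.2-fold. Of the 33 genes, 18 were at least 2-fold higher in suprabasal-like cells, none was 2-fold lower, 2 (Lor and Cers3) lay between, and 13 had fewer than 50 UMIs in the 2 classes together and were not counted. Among all 9875 genes with 50 UMIs there, 4.35% were 2-fold higher and 9.99% were 2-fold lower. The median log2 ratio was 3.89 over the 20 counted members and -0.09 over all counted genes. A rare gene can reach 50 UMIs only through the class in which it is high, so the count says nothing of the 13 others. The same limit applies to each count of this kind below. The plot of levels by class gives each member in the 4 groups of cells.

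**Figure D1:**
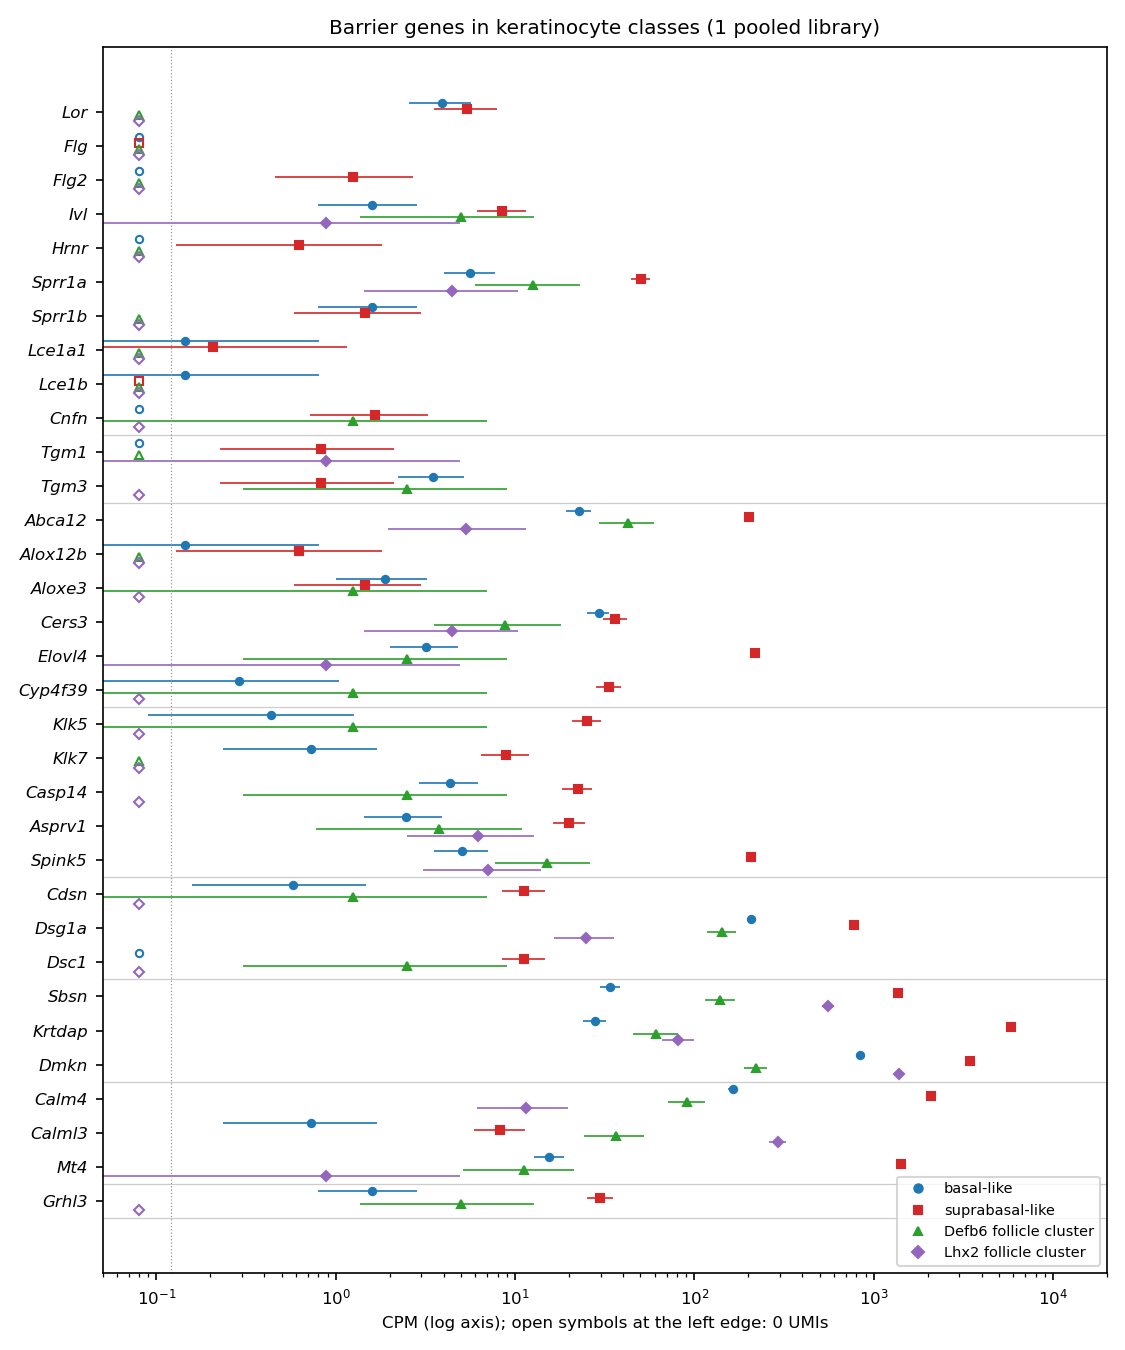
Level of each of the 33 genes, in CPM on a log axis, in basal-like cells, suprabasal-like cells and the 2 hair follicle-like clusters, named by their leading genes Defb6 and Lhx2; bars are exact 95% counting intervals and open symbols at the left edge stand for 0 UMIs. Krtdap reached 5828 CPM in suprabasal-like and 27.8 CPM in basal-like cells, while Lor, at 5.39 and 3.90 CPM, was nearly level.

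The 3 secreted peptides lie side by side on chromosome 7, on the plus strand of GRCm38. Sbsn (suprabasin) spans chr7:30751471-30756134, Dmkn (dermokine) chr7:30763756-30781063 and Krtdap (keratinocyte differentiation-associated protein) chr7:30787896-30791097, with no other protein-coding gene within the 39.6 kb. All 3 are secreted products of differentiating keratinocytes. Krtdap was at 5828 CPM (5760 to 5896) in suprabasal-like cells, 73.1 CPM in hair follicle-like cells and 27.8 CPM in basal-like cells, a suprabasal to basal ratio of 210 (182 to 243). Sbsn was at 1359, 385 and 33.8 CPM in the same order, a ratio of 40.2 (35.3 to 46.0). Dmkn was at 3453, 907 and 838 CPM, a ratio of 4.12 (4.0 to 4.25). The neighbours thus differed in their basal level: Dmkn had a UMI in 91.7% of basal-like cells, against 12.5% for Krtdap and 21.3% for Sbsn. After each cell was thinned to 1000 UMIs, the basal shares were 46.0%, 2.28% and 2.77%, and the suprabasal shares were 88.6%, 71.6% and 40.5%. Macrophage-like cells, which are not known to express these genes and had a median depth of 8527 UMIs, gave thinned shares of 0.501%, 0.860% and 0.501%.

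The 250 bases before each start site and the first 30 bases after it are shown for these 3 genes from RefSeq (GRCm38.p6), because all 3 neighbours were higher in suprabasal-like cells and their windows share a short motif. Capitals mark TGANTCA, where N is any base. This is a looser form of TGAGTCA or TGACTCA, the core letters bound by AP-1. AP-1 is a factor pair of Fos and Jun proteins known to act on many epidermal genes. The first match in Sbsn is TGAATCA, outside the core letters. The windows are chr7:30751221-30751500, chr7:30763506-30763785 and chr7:30787655-30787934, all on the plus strand.
Sbsn: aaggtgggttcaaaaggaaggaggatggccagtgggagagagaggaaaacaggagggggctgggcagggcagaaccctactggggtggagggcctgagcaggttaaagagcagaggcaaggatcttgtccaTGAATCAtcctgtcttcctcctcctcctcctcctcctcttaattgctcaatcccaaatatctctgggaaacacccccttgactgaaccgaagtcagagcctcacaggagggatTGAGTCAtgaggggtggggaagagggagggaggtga
Dmkn: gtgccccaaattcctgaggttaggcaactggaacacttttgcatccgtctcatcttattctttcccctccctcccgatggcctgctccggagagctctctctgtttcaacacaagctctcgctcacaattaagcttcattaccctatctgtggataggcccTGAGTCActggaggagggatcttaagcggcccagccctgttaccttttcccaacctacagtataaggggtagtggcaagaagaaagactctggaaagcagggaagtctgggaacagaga
Krtdap: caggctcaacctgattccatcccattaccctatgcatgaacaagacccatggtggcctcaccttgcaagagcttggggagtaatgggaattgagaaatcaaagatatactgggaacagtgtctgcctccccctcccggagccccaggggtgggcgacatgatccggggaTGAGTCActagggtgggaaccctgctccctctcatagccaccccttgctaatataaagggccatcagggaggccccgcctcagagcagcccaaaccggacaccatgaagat
In Sbsn the letters begin 119 and 6 bases before the start site, in Dmkn 89 bases and in Krtdap 81 bases before it.

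Among the calcium and metal binding proteins, Calm4 and Mt4 were both far higher in suprabasal-like cells. Mt4, the metallothionein of stratified epithelia (chr8:94137197-94139031, plus strand), was at 1411 CPM (1377 to 1445) in suprabasal-like cells, 15.5 CPM in basal-like cells and 5.18 CPM in hair follicle-like cells. Its suprabasal to basal ratio was 91.2 (75.3 to 111). Calm4, a calmodulin-like protein of the epidermis, was at 2084 CPM in suprabasal-like, 164 CPM in basal-like and 44.6 CPM in hair follicle-like cells, with a suprabasal to basal ratio of 12.7 (12.0 to 13.5). The 2 genes differed in how much they were present before the keratin switch: 71.1% of basal-like cells held a Calm4 UMI and 8.77% held a Mt4 UMI, or 12.7% and 2.12% after thinning. Calml3, another calmodulin-like protein of epithelia, is the neighbour of Calm4 within 35.8 kb on chromosome 13 but had its highest level elsewhere, in the hair follicle-like cells described further on. The windows of Calm4 (chr13:3837507-3837786, plus strand) and Mt4 (chr8:94136954-94137233, plus strand) are shown as members with a large suprabasal level and no TGANTCA letters.
Calm4: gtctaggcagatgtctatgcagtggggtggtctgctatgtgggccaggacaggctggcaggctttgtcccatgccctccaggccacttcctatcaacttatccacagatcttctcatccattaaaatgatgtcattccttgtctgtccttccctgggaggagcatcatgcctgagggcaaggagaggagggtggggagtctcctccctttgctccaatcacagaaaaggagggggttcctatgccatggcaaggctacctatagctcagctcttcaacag
Mt4: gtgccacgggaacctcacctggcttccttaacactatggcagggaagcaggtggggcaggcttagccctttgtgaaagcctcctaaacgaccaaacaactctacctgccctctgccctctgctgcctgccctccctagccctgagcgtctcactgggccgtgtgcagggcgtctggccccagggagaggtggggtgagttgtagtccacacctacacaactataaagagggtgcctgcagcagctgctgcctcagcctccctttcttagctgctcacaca

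The barrier lipid genes split into 3 that were higher in suprabasal-like cells, 1 that was nearly level and 2 with too few UMIs. Elovl4, which elongates very long chain fatty acids for ceramides, was at 218 CPM in suprabasal-like, 3.18 CPM in basal-like and 1.55 CPM in hair follicle-like cells, a suprabasal to basal ratio of 68.5 (45.0 to 110). Cyp4f39, the cytochrome that hydroxylates the end of those fatty acids, was at 33.4 CPM against 0.289 CPM, from 161 and 2 UMIs, a ratio of 115 (31.4 to 961). Abca12, which loads lipids into lamellar bodies, was at 203 CPM against 22.7 CPM, a ratio of 8.93 (7.54 to 10.6). All 3 were thus higher above the basal layer, and Abca12 had the clearest basal level of them. Cers3, the ceramide synthase for the same very long chains, was at 36.0 CPM in suprabasal-like and 29.2 CPM in basal-like cells, a ratio of 1.23 (1.00 to 1.52). Cers3 fell short of 2-fold there but was 5.80 times (3.24 to 11.4) higher in suprabasal-like than in hair follicle-like cells. The lipoxygenases Alox12b and Aloxe3, neighbours within 43.9 kb on chromosome 11 that oxidise the linoleate of ceramides in turn, had 4 and 42 UMIs in the whole matrix.

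All 4 counted genes among the proteases and their inhibitor were higher in suprabasal-like cells. Spink5 encodes LEKTI, the inhibitor that holds the kallikreins in check. It was at 207 CPM (195 to 221) in suprabasal-like and 5.06 CPM in basal-like cells, a ratio of 41.0 (29.3 to 59.2). Klk5, a kallikrein that starts the cleavage of corneodesmosomes, was at 25.1 and 0.434 CPM, from 121 and 3 UMIs, a ratio of 57.8 (19.3 to 284). Spink5 was detected in 45.1% of suprabasal-like cells and Klk5 in 8.82%, and such a share depends on each gene's own level. After thinning the shares were 14.3% and 2.72%, with no thinned UMI of either gene in 1396 macrophage-like cells, which allows up to 0.264% by the exact upper limit. Casp14, the caspase of cornification that acts in filaggrin breakdown, was at 22.4 against 4.34 CPM, a ratio of 5.16 (3.42 to 8.01). Asprv1, the retroviral-like protease that cuts profilaggrin, was at 20.1 against 2.46 CPM, a ratio of 8.18 (4.85 to 14.6). Of its UMIs, 34 of 97 in suprabasal-like and 12 of 17 in basal-like cells were in 1 cell each, and without the former the ratio was 5.37 (3.10 to 9.79). Klk7, the partner kallikrein of Klk5 on chromosome 7, had 43 suprabasal and 5 basal UMIs, under the minimum.

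In the desmosome group, Dsg1a, a desmosomal cadherin that holds suprabasal cells together, was at 774 CPM in suprabasal-like cells, 207 CPM in basal-like cells and 73.6 CPM in hair follicle-like cells. The suprabasal to basal ratio was 3.74 (3.51 to 3.97). Dsc1, its partner cadherin of the upper layers, had 54 UMIs in suprabasal-like and 0 in basal-like cells. Set against a floor of 3 UMIs over all basal-like cells, Dsc1 was at least 25.8-fold higher, and the lower limit of the exact interval was 20.3, or 8.72 without the cell with the most. Cdsn, the corneodesmosin that locks desmosomes of the outermost layers, had 54 and 4 UMIs, a ratio of 19.3 (7.13 to 73.6). Dsc1 and Cdsn rested on few cells: 30 of the 54 suprabasal Dsc1 UMIs and 28 of the 54 Cdsn UMIs were in 1 cell. Grhl3, a grainyhead-like transcription factor needed for barrier formation, was at 29.8 CPM in suprabasal-like and 1.59 CPM in basal-like cells, a ratio of 18.8 (10.2 to 38.4), and no cell held more than 5 of its 144 suprabasal UMIs.

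Among the 10 envelope precursors and late proteins, Sprr1a and Ivl were 2-fold higher in suprabasal-like cells, Lor lay between, and 7 had under 50 UMIs. Sprr1a, a small proline-rich crosslinking bridge, was at 50.1 CPM in suprabasal-like, 5.64 CPM in basal-like and 7.77 CPM in hair follicle-like cells, a suprabasal to basal ratio of 8.89 (6.32 to 12.8), and its 242 suprabasal UMIs came from 30 of 408 cells. Of its 39 basal UMIs, 29 were in 1 cell, so the basal level and the ratio depend on that cell. Ivl (involucrin), an early scaffold of the envelope, had 41 suprabasal and 11 basal UMIs, a ratio of 5.34 (2.70 to 11.5), which was 2.77 (1.28 to 6.36) without the cell with the most. Lor (loricrin), the main mass of the mature envelope, had 26 suprabasal and 27 basal UMIs, a ratio of 1.38 (0.774 to 2.46). Loricrin was thus no higher in the cells with keratins 1 and 10 than counting error allows. In the whole matrix Flg (filaggrin, whose fragments bundle keratin and hold water) had 6 UMIs, Hrnr (hornerin) 5, Sprr1b 18, Lce1a1 2, Lce1b 1 and Cnfn (cornifelin) 10. The crosslinking enzyme Tgm1 had 4 UMIs in suprabasal-like and 0 in basal-like cells, and Tgm3 had 4 and 24. Apart from Sprr1a, the envelope part of the label therefore rests on few UMIs in these cells. In a list of 35 other envelope and late genes, 25 had no UMI in the suprabasal-like and basal-like cells and 22 of them had none in the whole matrix, as did 8216 of all 32285 genes. The 21 Lce and Sprr genes of that list had 2 UMIs in these cells together.

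Of the envelope genes, 9 lie within 1253 kb on chromosome 3 (chr3:92080271-93333570, GRCm38), the epidermal differentiation complex, with 53 protein-coding genes in that stretch. The windows of Lor (chr3:92083113-92083392), Ivl (chr3:92573706-92573985) and Sprr1a (chr3:92485852-92486131), all on the minus strand, are shown because they carry the same letters as the Sbsn block although their counts were low.
Lor: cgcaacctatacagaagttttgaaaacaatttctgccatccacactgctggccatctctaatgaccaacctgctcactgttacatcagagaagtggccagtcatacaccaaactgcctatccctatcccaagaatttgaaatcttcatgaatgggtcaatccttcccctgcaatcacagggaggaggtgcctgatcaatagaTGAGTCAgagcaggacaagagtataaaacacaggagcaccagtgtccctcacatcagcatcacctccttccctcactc
Ivl: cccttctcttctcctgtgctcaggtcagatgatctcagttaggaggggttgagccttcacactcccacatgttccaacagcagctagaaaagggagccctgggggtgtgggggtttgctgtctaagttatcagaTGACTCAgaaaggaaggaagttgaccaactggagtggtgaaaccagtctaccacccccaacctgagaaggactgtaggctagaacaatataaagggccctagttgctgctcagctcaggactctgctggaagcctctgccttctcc
Sprr1a: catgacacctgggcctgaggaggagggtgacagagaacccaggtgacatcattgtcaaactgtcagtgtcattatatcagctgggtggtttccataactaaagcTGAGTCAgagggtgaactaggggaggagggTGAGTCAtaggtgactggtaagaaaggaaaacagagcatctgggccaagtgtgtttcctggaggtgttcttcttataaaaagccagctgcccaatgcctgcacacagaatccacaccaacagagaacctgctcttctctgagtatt
Windows of 28 of the 33 genes were used. Spink5, Dsg1a, Dsc1, Aloxe3 and Calml3 were left out, so the member shares below do not cover them. Of these, Spink5, Dsg1a and Dsc1 were among the genes 2-fold higher in suprabasal-like than basal-like cells, and they lie outside both blocks. On either strand, TGANTCA occurred in 9 of these 28 windows (32.1%), and in 7.46% of all 32851 RefSeq windows of the same length. All 9 were in these 2 blocks of neighbours: 6 of 9 windows on chromosome 3, 3 of 3 in the Sbsn block and 0 of 16 elsewhere. The 2 shares differ in unit: members had 1 window each, the one nearest the gene start, while the 32851 windows belong to 27025 gene symbols. Dmkn had 3 listed windows, of which 1 was used. The only match in the Flg2 window was TGAATCA, and shares for TGAGTCA or TGACTCA alone were not computed. Neighbouring genes of 1 family share ancestry, so the windows are not independent. The grainyhead letters AACCNGTT were in 0 of 28 windows and in 1.95% of all windows. The C/EBP letters TTGCNNAA were in 7 (25%) against 10.4%, and TATAAA in 9 (32.1%) against 13.1%. None of these 4 strings of letters contains another, and a match is a description of the sequence, not a site.

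The order of cells by keratins shows where along the keratin switch each gene had its higher level. The 1016 basal-like and suprabasal-like cells with at least 10 UMIs of Krt1, Krt10, Krt5 and Krt14 were ordered by log2 of (Krt1 + Krt10 + 1) over (Krt5 + Krt14 + 1) and cut into sixths of 169 or 170 cells; 8 cells had too few keratin UMIs. The first 3 sixths held 2 suprabasal-like cells, the fourth 66 of 169, and the fifth and last only suprabasal-like cells. Median depth per sixth ran from 10191 to 12626 UMIs. Between the last and the first sixth, 16 of the 33 genes were 2-fold higher, Cers3 was between and 16 had under 50 UMIs. Of all counted genes 7.35% were 2-fold higher and 11.3% lower. The highest level was in the last sixth for 19 of the 20 members with 50 UMIs in the order, against 22.2% of all counted genes, and Casp14 was highest in the fifth. Some of these peaks were within counting error of the fifth sixth. Lor was at 7.77 CPM (4.44 to 12.6) in the last and 5.03 CPM (2.41 to 9.25) in the fifth, and the intervals of Cers3 and Grhl3 also overlapped. Without 1 deep cell described below, the number highest in the last sixth was 16, because Ivl, Cdsn and Dsc1 then had fewer than 50 UMIs.

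**Figure D2:**
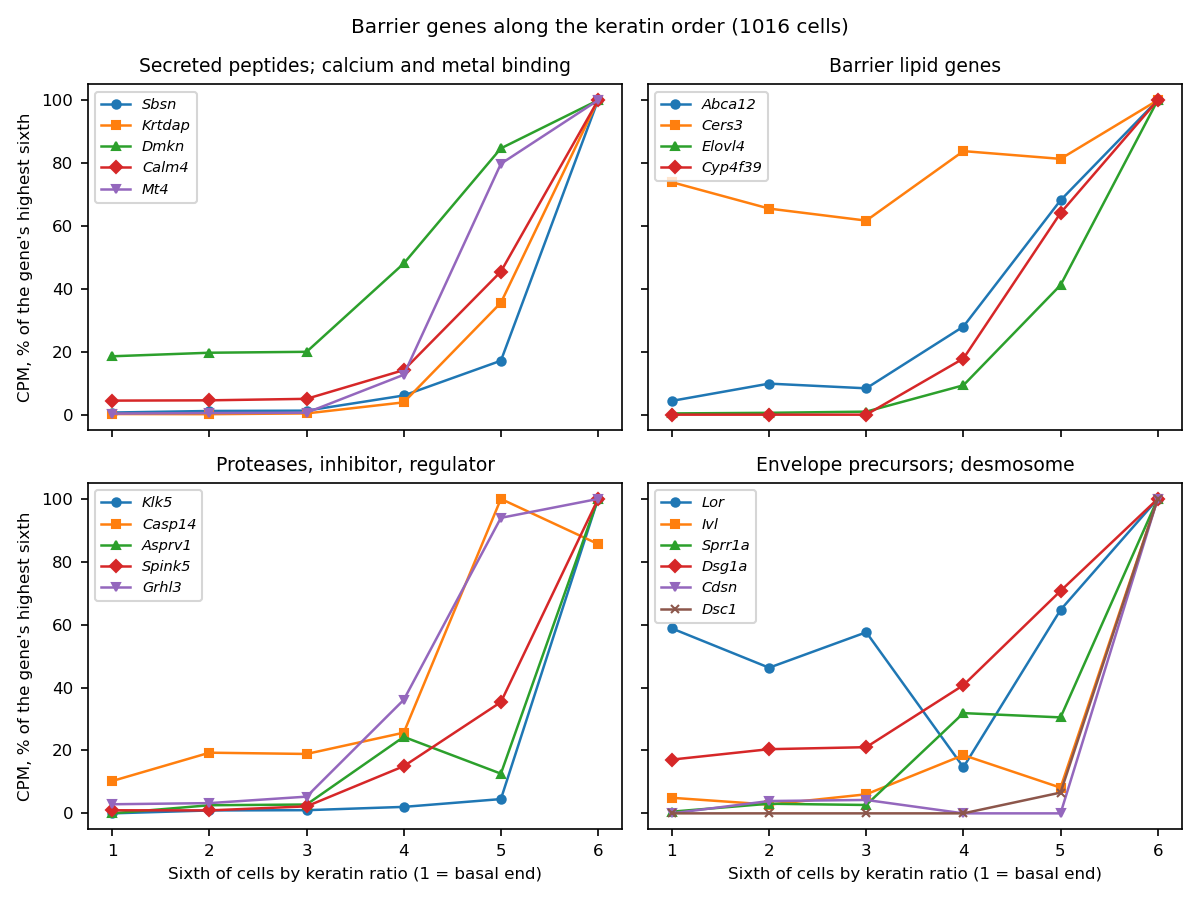
Level of the 20 genes with at least 50 UMIs in the ordered cells, as a percent of the gene's own highest sixth, along the 6 sixths of the keratin order from the basal end (1) to the suprabasal end (6). Mt4 and Dmkn were already near their last level in the fifth sixth, Sbsn and Klk5 were mainly in the last, and Cers3 varied little.

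Genes of the same role reached their higher levels at different points. Dmkn was at 727, 772 and 783 CPM in the first 3 sixths, then at 1883, 3317 and 3917 CPM. Krtdap was at 20.1, 15.4, 39.7, 388, 3530 and 9914 CPM, and Sbsn at 17.8, 30.9, 33.6, 160, 451 and 2626 CPM. In the chromosome 7 block Dmkn therefore came first, Krtdap next and Sbsn last, measured by the share of the highest level that each had in the fifth sixth. In the fourth sixth the last 2 were the other way round, with Sbsn at 6.10% and Krtdap at 3.92% of the highest level. Mt4 was at 5.94, 9.26, 11.2, 225, 1417 and 1775 CPM, and Calm4 at 143, 146, 161, 454, 1457 and 3201 CPM. Abca12 was at 11.4, 25.7, 21.8, 73.0, 178 and 260 CPM, and Elovl4 at 1.37, 2.06, 3.36, 32.5, 143 and 348 CPM. Both lipid genes were thus low until the fourth sixth, and in the fifth sixth Elovl4 had a smaller part of its last level than Abca12. Spink5 was at 3.20, 3.09, 7.28, 49.0, 116 and 327 CPM, while Klk5 was at 0, 0.514, 0.560, 1.14, 2.52 and 55.4 CPM. Spink5 was thus detected in the fourth and the fifth sixth, where Klk5 had 2 and 5 UMIs, and levels are not compared between the 2 genes. Grhl3 was at 11.4, 29.7 and 31.6 CPM in the last 3 sixths, and Casp14 at 6.84, 26.7 and 22.8 CPM.

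From the fourth to the fifth sixth, where the share of suprabasal-like cells became complete, 10 of the 33 genes were 2-fold higher, none was lower, 14 were counted, and the backgrounds were 1.76% and 3.66%. Krtdap was 9.09 times (8.40 to 9.85) higher, Mt4 6.29 times (5.66 to 7.01) and Elovl4 4.41 times (3.31 to 5.97). The step from the fifth to the last sixth compares suprabasal-like cells only. In it 10 of the 33 genes were 2-fold higher, none was lower, 18 were counted, and the backgrounds were 2.26% and 1.29%. Among the 10, Dsc1 and Cdsn were counted only through 1 deep cell of the last sixth, described below. Without that cell they had 17 and 26 UMIs in the last sixth, and under 50 in both sixths together. Klk5 was 22.0 times (9.17 to 69.1) higher, Dsc1 15.1 times (4.87 to 76.0), Asprv1 7.92 times (4.10 to 17.1) and Sbsn 5.83 times (5.43 to 6.26). Sprr1a was 3.28 times higher, Spink5 2.83, Krtdap 2.81, Elovl4 2.43 and Calm4 2.20 times, and Cdsn had 54 UMIs in the last sixth and 0 in the fifth. Below 2-fold were Cyp4f39 at 1.56 times, Abca12 at 1.47, Dsg1a at 1.41, Mt4 at 1.25, Cers3 at 1.23, Dmkn at 1.18, Grhl3 at 1.06 and Casp14 at 0.856 times. The intervals of Cers3 (0.880 to 1.72), Grhl3 (0.736 to 1.54) and Casp14 (0.566 to 1.29) held 1.

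**Figure D3:**
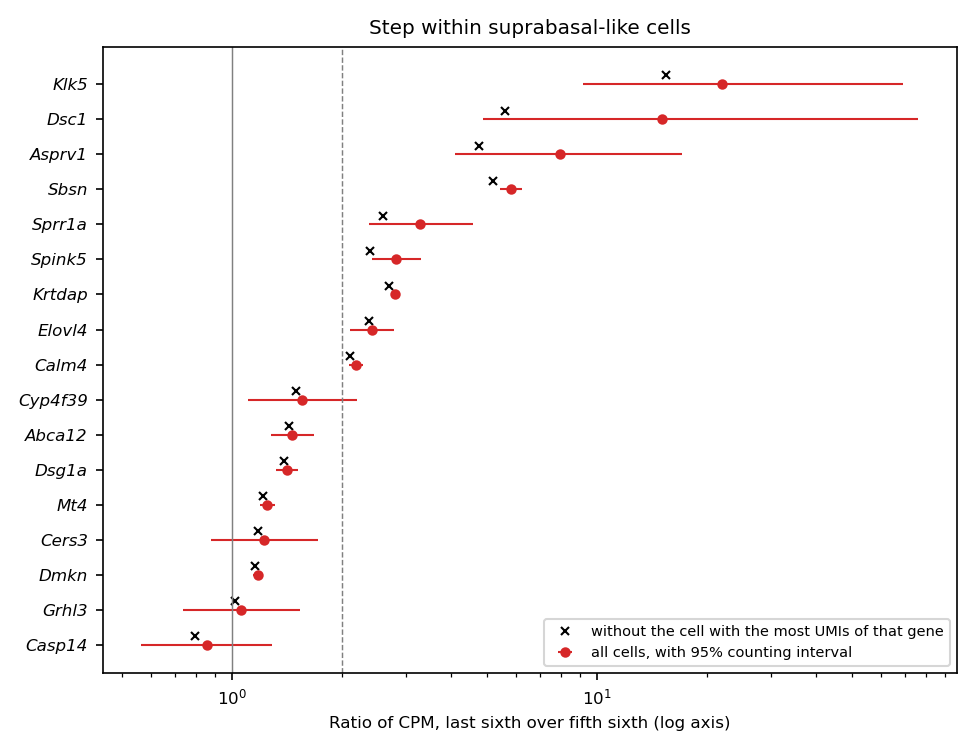
Ratio of the level in the last sixth of the keratin order to that in the fifth, on a log axis, for members with 50 UMIs in these sixths, with exact 95% counting intervals; crosses leave out the cell with the most UMIs of that gene, the solid line is at 1 and the dashed line at 2. Klk5 stood at 22.0 with all cells and 15.5 without its top cell, and Dsc1 at 15.1 and 5.62.

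A single cell carried much of the late signal. This suprabasal-like barcode held 54954 UMIs, the third deepest of all, and was not called a doublet. It held 36 Klk5, 31 Klk7, 28 Cdsn, 30 Dsc1, 20 Ivl, 34 Asprv1, 5 Cnfn, 24 Calml3, 716 Sbsn and 1319 Krtdap UMIs, with 1121 of Krt10, 0 of Krt5 and Krt14, and 0 of Lor and Sprr1a. For Klk5, Klk7, Cdsn and Dsc1 together it had 39.6% of the 316 UMIs, and 71 barcodes had any. Smaller cells showed a like combination: one of 2373 UMIs held 11 Klk5, 4 Klk7, 8 Cdsn and 4 Ivl, and one of 1647 UMIs held 2 Klk5, 1 Klk7, 6 Cdsn and 3 Ivl. Sprr1a had no UMI in these 3 cells, but other cells held it with Klk5: one of 25800 UMIs had 20 Sprr1a and 6 Klk5, and one of 24626 UMIs had 18 Sprr1a and 8 Klk5. Without the deepest of these cells, the last sixth was at 38.9 CPM for Klk5, 13.0 CPM for Cdsn, 8.49 CPM for Dsc1, 24.0 CPM for Asprv1 and 2341 CPM for Sbsn, each still above the fifth. Without it, 15 of the 33 genes were 2-fold higher in suprabasal-like than basal-like cells instead of 18, because Ivl, Cdsn and Dsc1 then had fewer than 50 UMIs. Whether this barcode holds more than 1 cell was not tested.

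**Figure D4:**
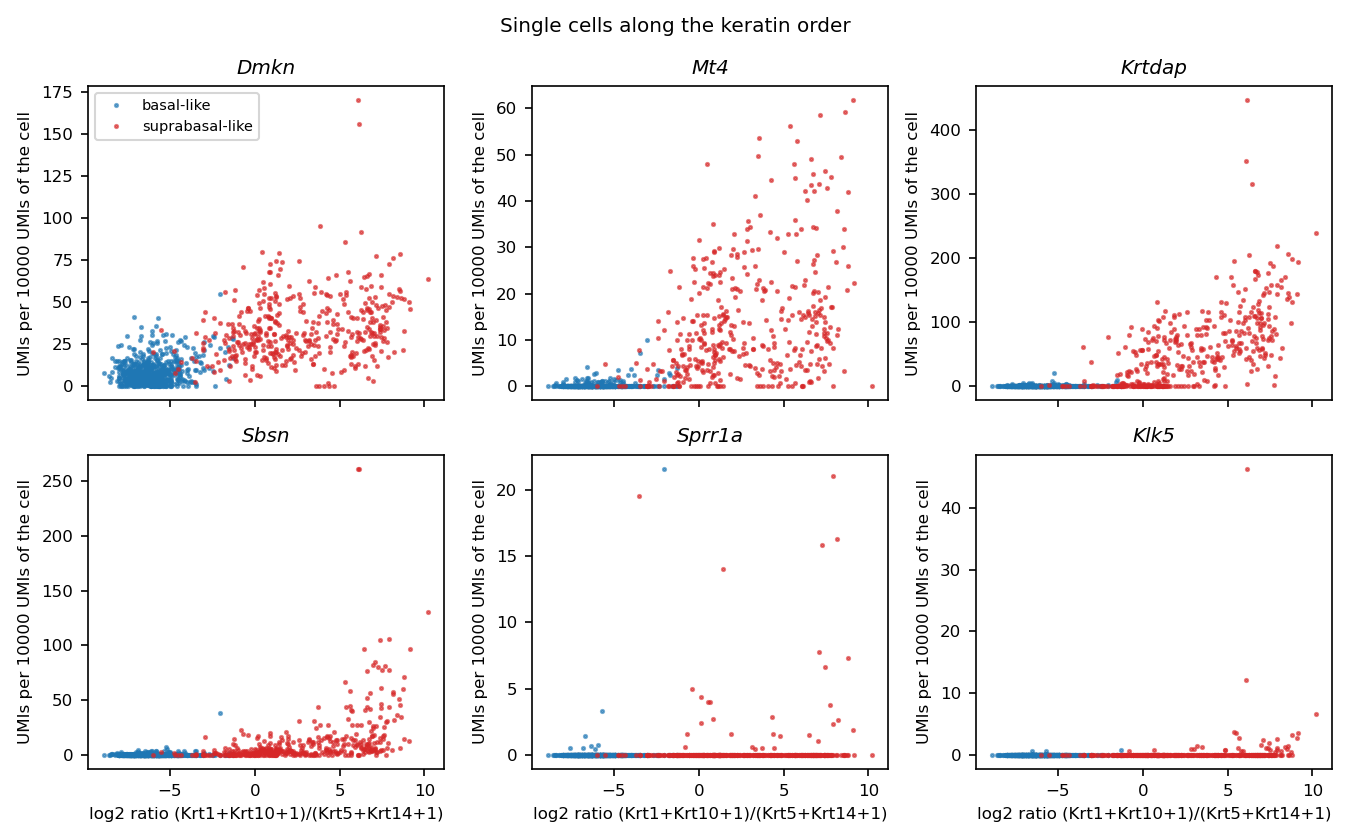
UMIs per 10000 UMIs of the cell for 6 genes in each of the 1016 ordered cells, against the log2 keratin ratio of the cell, with basal-like cells in blue and suprabasal-like cells in red. Dmkn was spread over both classes, Mt4 and Krtdap over most suprabasal-like cells, Sbsn over the highest ratios, and Sprr1a and Klk5 over few cells.

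Within the 406 suprabasal-like cells of the order, the levels of the abundant members followed the keratin ratio to different degrees. Spearman's rho with the ratio was 0.71 for Krtdap, 0.63 for Calm4, 0.60 for Sbsn, 0.55 for Elovl4, 0.42 for Dsg1a, 0.37 for Mt4, 0.34 for Spink5, 0.26 for Dmkn and 0.25 for Abca12. Between members, it was 0.69 for Krtdap and Calm4, 0.63 for Sbsn and Krtdap, and -0.02 for Abca12 and Dmkn. These cells share 1 library, and depth moves with some of them: rho with the UMIs of the cell was 0.35 for Abca12, 0.08 for Krtdap and 0.04 for Calm4. The values are descriptions, and the part of depth in them was not tested.

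Other genes of the same pathways were read from lists of related genes, in suprabasal-like against basal-like cells. Unlike the members, these genes were not kept out of the clustering, so they could help to choose the cells. Acer1 was among the leading genes of the suprabasal-like cluster. Of 27 other barrier lipid genes, 11 were 2-fold higher and none lower among 19 counted, with a median log2 ratio of 1.04. Acer1, an alkaline ceramidase, was 84.5 times (49.1 to 160) higher at 159 CPM, and Fabp5, a fatty acid binding protein, was 27.9 times (23.0 to 34.2) higher at 432 CPM. The ceramide-synthesis gene Sptlc3 was 2.60 times higher. Of 22 other proteases and inhibitors, 4 were higher and 2 lower among 12 counted, among them Cst6 (cystatin M/E, also on the hair follicle marker list) at 9.57 times. Of 11 other desmosome genes, 5 were higher and 2 lower among 9 counted, with the membrane protein Perp at 2.25 times and the plaque protein Dsp at 1.86 times. Of 10 tight junction genes, 2 of 7 counted were higher, and the claudin Cldn1 was at 1.24 times. Of 26 differentiation regulators, 8 of 24 counted were higher, with the transcription factors Zfp750 at 17.8 times (13.8 to 23.2) and Klf4 at 1.21 times. Of the 35 other envelope and late genes, 1 was higher and none lower among 5 counted, with a median log2 ratio of 0.58. Evpl (envoplakin) was at 3.13 times, Ppl (periplakin) at 1.91, S100a16 at 1.5 and S100a14 at 1.16 times. The background for these counts is the same 4.35% higher and 9.99% lower.

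In hair follicle-like cells the barrier genes split by cluster. Against suprabasal-like cells, 18 of the 33 genes were 2-fold higher in suprabasal-like cells and 1, Calml3, was lower, with 19 counted and backgrounds of 7.29% and 18%. One hair follicle-like cluster was led by Lhx2 (186 cells) and the other by Defb6, with Krt79 among its leading genes (85 cells). Their median depths were 5229.5 and 9566 UMIs. Sbsn was at 559 CPM (516 to 604) in the Lhx2 cluster, 139 CPM in the Defb6 cluster and 33.8 CPM in basal-like cells. Dmkn was at 1392 CPM in the Lhx2 cluster and 220 CPM in the Defb6 cluster, either side of the 838 CPM of basal-like cells. Calml3 was at 291 CPM (260 to 324) in the Lhx2 cluster, 36.3 CPM in the Defb6 cluster, 8.29 CPM in suprabasal-like cells and 0.723 CPM in basal-like cells. The Lhx2 cluster thus had Sbsn, Dmkn and Calml3 above the basal level, with Krtdap at 81.3 CPM and Elovl4 and Mt4 at 1 UMI each. All 6 fibroblast markers were detected there at 815 CPM summed, against 176 CPM in basal-like cells and 80.1 CPM in the Defb6 cluster, and their part in these levels was not tested. In the Defb6 cluster, Dsg1a was at 143 CPM and Calm4 at 91.4 CPM, against 24.8 and 11.5 CPM in the Lhx2 cluster. Between the 2 clusters 2 of the 33 genes were 2-fold higher in the Defb6 cluster and 3 in the Lhx2 cluster, with 6 counted and backgrounds of 6.02% and 10.1%. Against basal-like cells, the Lhx2 cluster had 3 of the 33 genes 2-fold higher (Sbsn, Krtdap and Calml3) and 5 lower, with 9 counted and backgrounds of 14.2% and 9.97%. The Defb6 cluster had 2 higher (Sbsn and Krtdap) and 2 lower (Cers3 and Dmkn), with 8 counted and backgrounds of 6.71% and 6.8%. Calml3 had a UMI in 55.9% of Lhx2-cluster cells, or 24.9% after thinning, and in 0 of 405 thinned suprabasal-like cells, which allows up to 0.907%.

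Taking both clusters as 1 class, 4 of the 33 genes were 2-fold higher than in basal-like cells (Spink5, Sbsn, Krtdap and Calml3) and 4 lower (Cers3, Dsg1a, Calm4 and Mt4), with 11 counted and backgrounds of 11.4% and 6.4%. This comparison depended on how the cells were clustered. Under a finer clustering, at Leiden resolution 2, none of those 4 stayed 2-fold higher, and the log2 ratio of Sbsn was -1.39 and that of Calml3 -2.25. The values of the 2 clusters above are therefore tied to the clustering used here.

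In a cluster of 60 cells led by Skint5 and Skint6, Abca12, Grhl3 and Cers3 were above their suprabasal-like levels, and Krtdap, Sbsn, Dmkn, Calm4 and Mt4 were below them. The cluster has no cell type name here, for both of the following reasons. Its median of 3057.5 UMIs was below 3177, the median of all cells divided by 3. None of its leading genes was a marker of a listed type. Of the 8 suprabasal markers, 7 had a UMI in it, at 1050 CPM summed, against 13682 CPM in suprabasal-like cells. All 7 basal markers had a UMI in it, at 2908 CPM summed, against 22206 CPM in basal-like and 11006.5 CPM in suprabasal-like cells. Mitochondrial UMIs were at a median of 8.73% and the nuclear RNA Malat1 at 36920 CPM, against 2.05% and 7844 CPM in suprabasal-like cells, and the part of these differences in the levels was not tested. Abca12 was at 1089 CPM, 5.38 times (4.63 to 6.23) the level in suprabasal-like cells, Grhl3 at 108 CPM, 3.64 times (2.21 to 5.72), and Cers3 at 104 CPM, 2.87 times (1.73 to 4.53). Krtdap at 251 CPM, Sbsn at 98.6 CPM and Mt4 at 44.4 CPM were lower than in suprabasal-like cells. With 19 counted, 4 of the 33 genes were 2-fold higher and 10 lower, against backgrounds of 37% and 29.3% of the counted genes. The fourth of those higher was Klk7, whose 8 UMIs there were in 1 barcode. The median log2 ratio was -1.71 over the 19 counted members and 0.32 over all counted genes.

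A single barcode in that cluster held nearly all of the filaggrin-family signal. With 3051 UMIs and 1333 genes, it carried 36 of the 43 Flg2 UMIs of all cells analysed (83.7%), 5 of 6 Flg, 20 of 100 Lor, 8 Klk7, 7 Grhl3, 5 Cers3, 2 Tgm1 and 1 Hrnr. It held 0 UMIs of Krt1, Krt10, Krt5 and Krt14. Without it the cluster had 0 Flg2, 0 Flg, 0 Klk7 and 2 Lor UMIs, while Abca12 was at 1086 CPM, Cers3 at 80.1 CPM and Grhl3 at 75.1 CPM.

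Outside keratinocytes the members were mostly at trace levels. Of the 33 genes, 22 were 2-fold higher in the keratinocytes than in all other cells and 1 was lower, with 23 counted and backgrounds of 14.6% and 31.6%. The lower one was Tgm1, with 5 UMIs in 1295 keratinocytes and 92 in the 6527 other cells, 45 of them in fibroblast-like and 29 in macrophage-like cells. Sbsn was at 107 CPM (104 to 110) in fibroblast-like cells, 4.22 CPM (3.20 to 5.45) in macrophage-like cells and 4.03 CPM in monocyte-like cells. It was also at 93.0 CPM (65.8 to 128) in 28 sebocyte-like cells. In thinned cells the shares were 7.95% (7.12 to 8.84) of fibroblast-like and 0.501% (0.202 to 1.03) of macrophage-like cells, and without thinning 31.4% of the former (median depth 10701 UMIs) and 3.03% of the latter had a UMI. The ratio of Sbsn to Krtdap counts was 4.84 in fibroblast-like cells, 0.233 in suprabasal-like and 0.453 in macrophage-like cells. It was 5.27 in hair follicle-like, 4.50 in neutrophil-like, 2.86 in NK or innate lymphoid-like and 1.17 in monocyte-like cells. Krtdap at 22.2 CPM and Dmkn at 32.9 CPM were also higher in fibroblast-like than in macrophage-like cells, at 9.31 and 11.1 CPM. The part of free RNA in these values was not tested. By cluster, Sbsn ran from 4.55 CPM to 186 CPM over the fibroblast-like clusters, and in the highest of these 53.5% of 682 cells had a UMI. Calm4 and Mt4, at 1.72 and 1.15 CPM in fibroblast-like cells, were no higher there than in macrophage-like cells at 3.85 and 3.49 CPM.

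Asprv1 stood out among the members counted in neutrophil-like cells. In 40 neutrophil-like cells it had 22 UMIs, 105 CPM (65.5 to 158), against 20.1 CPM in suprabasal-like cells, a ratio of 5.20 (3.12 to 8.33). Of the 33 genes, 1 was 2-fold higher there than in suprabasal-like cells, which was Asprv1, with 18 counted and a background of 18.8%, and 17 were lower against 32%. The UMIs came from 14 cells with at most 4 each, and all 14 held at least 3 neutrophil markers. Those 14 cells had 1 UMI of Krt5 and Krt14. The whole neutrophil-like class had 48 UMIs of the 4 keratins, with 6 of 7 basal markers detected at 480 CPM summed and 2 of 8 suprabasal markers at 42.8 CPM, against 62.0 and 37.1 CPM in macrophage-like cells. Its 6 fibroblast markers, all detected, summed to 2624 CPM. Dmkn was at 66.6 CPM there, against 11.1 CPM in macrophage-like cells. Calml3 was at 23.8 CPM (7.72 to 55.5) there, from 5 UMIs in 2 cells, against 8.29 CPM in suprabasal-like cells. Calml3 had too few UMIs in these 2 classes to be counted. The part of RNA from other cells in the Asprv1 level was not tested. Sbsn, which is more abundant in keratinocytes, was at 42.8 CPM (19.6 to 81.2) in neutrophil-like cells and had UMIs in 5 of them. After thinning, 15.8% (6.02 to 31.3) of 38 neutrophil-like cells and 1.23% (0.402 to 2.86) of 405 suprabasal-like cells held an Asprv1 UMI. Unthinned, the shares were 35% and 11%, in cells whose median depth was 2782.5 and 12081 UMIs. Monocyte-like, dendritic-like and NK or innate lymphoid-like cells had 0 Asprv1 UMIs, and macrophage-like cells had 3 in 1451 cells. Since the pool mixes control and neutrophil-depleted skin, the mice these cells came from were not told apart.

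**Figure D5:**
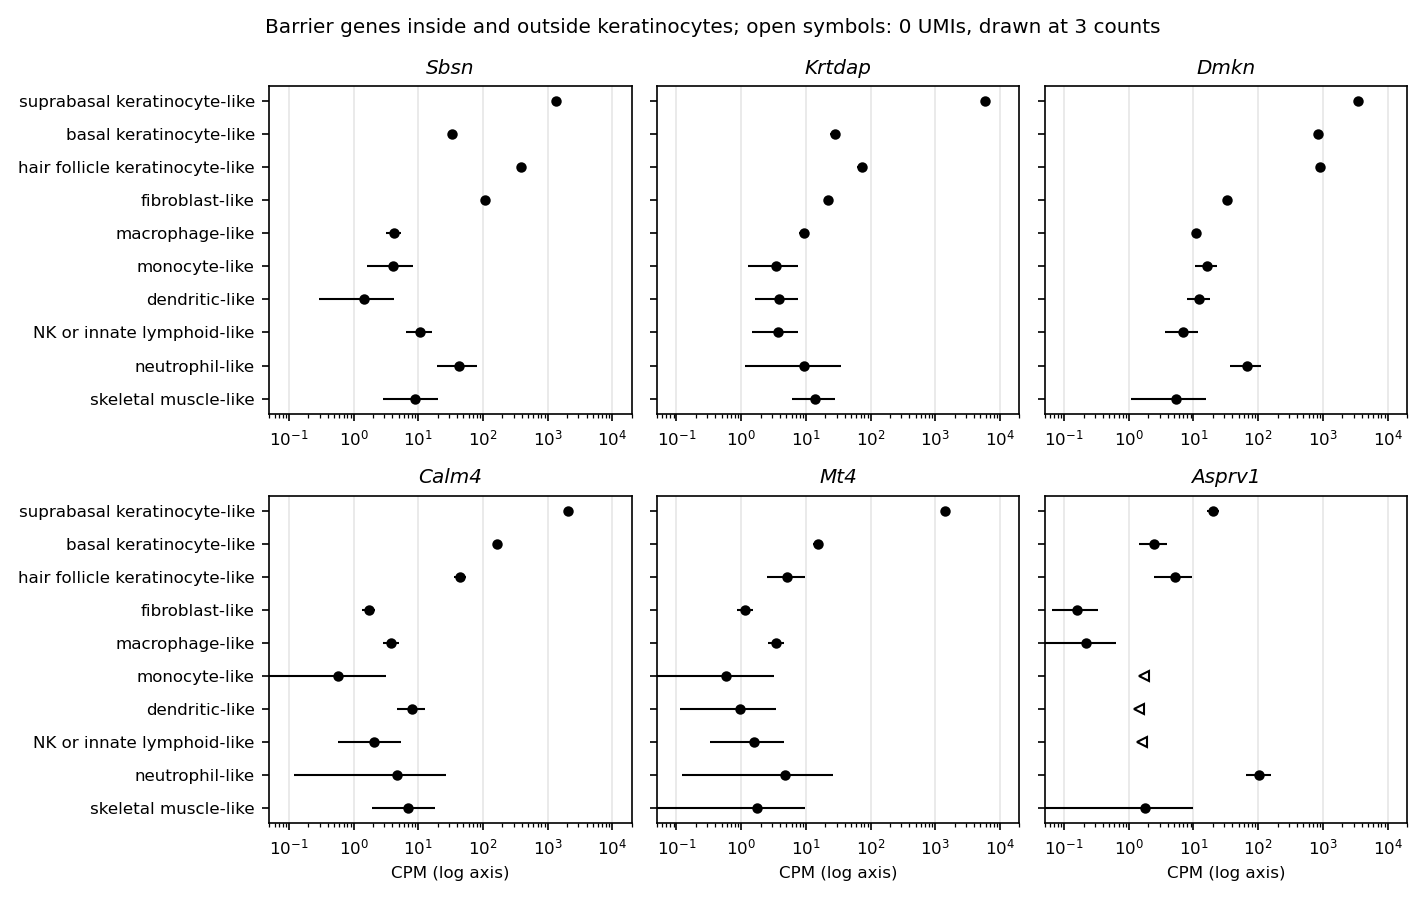
Levels of 6 genes in CPM (log axis) in the 3 keratinocyte classes and 7 other classes of cells, with exact 95% counting intervals; open symbols stand for 0 UMIs and are drawn at the level of 3 counts. Sbsn in fibroblast-like cells (107 CPM) and Asprv1 in neutrophil-like cells (105 CPM) stood above the other classes drawn outside the keratinocytes.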

How the data were processed

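The values are raw UMI counts for 1 pooled RNA library, which the authors deposited as 1 matrix made with Cell Ranger on mm10 per the submitters' processing notes; the version, cell calling and chemistry are not given in the sources used here. The hashtag library was not analysed here.

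Barcodes with under 200 genes (87) or over 20% mitochondrial UMIs (237) were removed, 240 in all. Of the 8127 left, scrublet (Scanpy 1.11.5, expected rate 6%) called 305 doublets (3.75%), which were removed. No barcode name occurred more than once. Counts were scaled to 10000 per cell and logged. From 2000 variable genes without the 33 members, 30 components and 15 neighbours, Leiden clustering (leidenalg 0.10.2, resolution 1) gave 30 clusters. A cluster took a name, ending in -like, when it had at least 3 markers of a list past 2-fold over the median of all clusters and seen in at least 10% of its cells; members were not used. These are rebuilt names, and other annotations could draw the classes differently.

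UMIs were summed per class. Ratios of rates have exact conditional 95% intervals, levels Poisson and shares Clopper-Pearson intervals. Log2 ratios add 0.5 UMIs. Genes with 50 UMIs in the cells compared were counted, and a call is 2-fold. Shares were also taken after thinning to 1000 UMIs per cell. Where a group had 0 UMIs, the floor was set at 3. On simulated counts of the suprabasal over basal comparison 4-fold changes came back at a median of 3.98, and 0.103% of 9675 unchanged genes passed 2-fold. Of the 95% intervals, 90% held a true 2-fold change. The simulation had counting error only and no differences between cells, so its rates do not cover members carried by few cells. Gene positions are from GENCODE for GRCm38 and windows from RefSeq for GRCm38.p6.

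Alternatives were 500 genes, 10% mitochondrial UMIs, doublets kept, clusters with the members included, Leiden resolution 0.5 or 2, equal weight per cell, free RNA subtracted, other minimums of UMIs, and other bins, added counts, cells or thinning for the keratin order.

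Every member may be named; of each related list, the 2 highest in suprabasal-like cells and the 2 with the largest ratio among genes with 20 UMIs. The members and lists were chosen with earlier results of these data known.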

Additional observations from a re-analysis of the deposited data

How the results depend on the processing

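Of the counts, 6 were recomputed under the settings that apply to them, out of 18 in all: the members 2-fold higher in the 3 comparisons between keratinocyte classes, in the last against the first sixth and in keratinocytes against other cells, and those highest in the last sixth. The counts between neighbouring sixths, between or for single clusters, and for neutrophil-like cells were not recomputed. Of the settings, 2 (without the barcode with the most Klk5 UMIs, and without the unnamed and sebocyte-like clusters among other cells) were chosen after seeing the data. Of 79 recomputed values of these counts, 76 stayed within 1.5 times. This compares the size of a count and not its members. At Leiden resolution 2, none of the 4 members reported as higher in hair follicle-like than basal-like cells stayed 2-fold higher. The number higher in hair follicle-like than basal-like cells was 2 with doublets kept and 9 with no minimum of UMIs, against 4. The number higher in the last than the first sixth was 27 with no minimum of UMIs, against 16. Of 1115 recomputed ratios, 19 crossed 2-fold and 7 reversed, all of hair follicle-like against basal-like cells at Leiden resolution 2: the log2 ratio was 0.45 for Cers3, -0.24 for Spink5, 0.24 for Dsg1a, -1.39 for Sbsn, -0.35 for Krtdap, -2.25 for Calml3 and 1.47 for Mt4, and the cause was not tested. Without the barcode with the most Klk5 UMIs, the members 2-fold higher in suprabasal-like cells were 15 against basal-like and 16 against hair follicle-like cells, and 18 were higher in keratinocytes than in other cells. In the keratin order, 14 were then higher in the last than the first sixth, against 16. The number highest in the last sixth was then 16, against 19. At this depth, 13 of the 33 members, 7 of them envelope precursors or late proteins, had under 50 UMIs in suprabasal-like and basal-like cells together. No paired analysis was possible because there is 1 library.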
